A study of Mus musculus with 6 samples.

Results

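The transcripts described here were measured by 2404 array probes whose names are neither RefSeq accessions nor genome positions. They are named for GenBank cDNAs, Ensembl predicted transcripts and a few long non-coding RNAs (lncRNAs). A probe was included when the scanner software marked its signal as well above background on each of the 3 PVBL or each of the 3 sham arrays. Of 6423 probes with such names, 2404 (37.4%) met this condition, out of 55681 probes that are not controls and 27919 that met the condition under any name. The flags that chose the probes come from the same arrays, so a probe included through 1 group alone was chosen on a difference in flags between the groups. For that reason counts of changed probes rest on the 1984 probes (82.5%) that were well above background on all 6 arrays.

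The study used livers of male C57BL/6J mice collected 3 days after surgery. In the 3 PVBL samples the left branch of the portal vein had been tied and the unligated right lobe was taken as regenerating liver, and the 3 sham samples came from sham-operated mice. Each sample was hybridised to 1 single-colour Agilent array, and the comparison asks how RNA levels in the regenerating lobe differ from those in sham liver. The age of the mice is not given. The labels do not say that the samples of a group came from separate mice, and the p-values below then cover only the variation among these 6 samples, which may be technical.

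When a branch of the portal vein is closed, portal blood is redirected to the lobes still supplied, the ligated lobe shrinks, and hepatocytes of the supplied lobes enter the cell cycle. Probes for cDNAs and predicted transcripts cover the part of an array design that had no curated reference mRNA when it was made: full-length cDNAs cloned from many tissues, partial sequences called expressed sequence tags, gene predictions, antisense transcripts and non-coding RNA. Long non-coding RNAs act as RNA, for example as scaffolds of nuclear bodies or in silencing imprinted genes in cis.

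Names starting with ENSMUST, Ensembl mouse transcripts, made up 1625 of the 2404 probes (67.6%). Names starting with AK, the accessions of full-length mouse cDNAs from the RIKEN collection, made up 526 (21.9%). The others were 135 probes with other GenBank accessions, 48 with BC accessions from the Mammalian Gene Collection, 33 known only by an Agilent probe number, 20 named for lncRNAs, 11 starting with TC and 6 starting with NAP. The 2404 probes carried 2349 distinct names. Only 21 of them could be tied to a gene symbol through the RefSeq table (GRCm38.p6), because the files do not pair the other 2383 (99.1%) with gene names. For this reason most of the transcripts are described by their groups, and 4 are given by their identifiers as the largest changes.

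The named lncRNA probes could be tied to a gene by name, except those of 2 names that match no gene symbol. Among them the probes for Malat1 and Tug1 were all detected. Their promoters are shown to identify the start sites meant, since the results for these genes turn on several probes each. The sequences come from RefSeq on GRCm38.p6, cover 250 bases before to 50 after the start, and are printed 5′ to 3′ on the gene's strand. Malat1 lies on the minus strand with its promoter at chr19:5802623-5802922, and Tug1 on the minus strand with its promoter at chr11:3648765-3649064. Capitals mark a GC box, the letters GGGCGG.
Malat1: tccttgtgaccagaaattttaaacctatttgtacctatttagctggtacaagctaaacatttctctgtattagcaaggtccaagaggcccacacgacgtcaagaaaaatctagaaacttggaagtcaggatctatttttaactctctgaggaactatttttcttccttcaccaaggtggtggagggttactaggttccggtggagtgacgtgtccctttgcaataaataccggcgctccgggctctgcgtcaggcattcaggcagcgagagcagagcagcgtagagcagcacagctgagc
Tug1: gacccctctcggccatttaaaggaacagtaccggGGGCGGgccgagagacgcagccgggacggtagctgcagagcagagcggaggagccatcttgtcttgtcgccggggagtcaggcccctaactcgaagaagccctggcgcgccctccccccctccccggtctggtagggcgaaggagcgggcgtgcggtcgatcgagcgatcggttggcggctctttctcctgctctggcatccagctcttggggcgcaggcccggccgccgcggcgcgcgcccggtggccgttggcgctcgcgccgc
The Tug1 window was 71.3% G and C with 37 CpG pairs, and the Malat1 window 47% with 10 CpG pairs, against a median of 52.7% G and C over 32851 promoters of the same length of 300 bases. Searched on both strands, GGGCGG was found in 35.7% of all promoters, CCAAT in 37.4% and TATAAA in 13.6%. The Tug1 window held 1 match to GGGCGG and none to the other motifs, and the Malat1 window held no match to any of them. A match describes letters in this window and says nothing of binding.

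Each log2 level given below is relative to the 75th percentile of its array, and each log2 difference is PVBL minus sham. A probe was called changed when its adjusted p from limma, with Benjamini-Hochberg adjustment over all 27919 probes tested, was under 0.05. The second scaling sets each array to its E1A spike-in RNA, added to every sample at labelling, and therefore keeps a change shared by most transcripts. Between these scalings every difference moves by 0.43 log2 units, and the median over all probes tested goes from -0.19 to 0.24. Gaps between groups of probes are the same under both by construction, whereas the sign of a small difference is not.

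All 6 arrays shared 1 slide and 1 scan. Row 2 of that slide held the PVBL arrays and row 1 the sham arrays, which means that an effect of the row and one of the surgery cannot be told apart. The 75th percentile lay at 331 to 407 signal units on the PVBL arrays and at 315, 301 and 203 units on sham 1 to 3. Sham 3, the dimmest, had the highest mean spike-in signal, 11484 units in a range from 9322, and the part of this in the spike-in results was not tested. All 10 hepatocyte markers on the list were detected, and 2 were lower in PVBL. This count and the marker counts that follow stand beside 11.3 percent higher and 19.2 percent lower among all probes tested. Of stellate cell and fibroblast markers 5 of 12 were higher and 1 lower, of biliary markers 3 of 7 higher and 1 lower, and of endothelial markers 4 of 11 lower. Of B and plasma cell markers 3 of 8, of T and NK cell markers 3 of 10 and of erythroid markers 3 of 7 were lower, whereas 1 of 10 Kupffer cell markers was higher and 0 of 6 neutrophil markers passed. The neutrophil genes Mpo, Ngp and Ltf and the fat cell genes Adipoq and Plin1 were not well above background on any array. As log2 of summed levels, the endothelial list lay between 5.72 and 6.35 in PVBL and 6.88 and 6.98 in sham, and the biliary list between 2.82 and 4.43 in PVBL and 1.19 and 2.25 in sham. The hepatocyte list lay between 12.09 and 12.51 in PVBL and 12.71 and 12.86 in sham. The B and plasma cell list lay between 0.89 and 1.31 in PVBL and 1.61 and 1.87 in sham. Every other list overlapped between the groups. The part of other cell types in the results below was not tested, and in bulk tissue fewer cells of a type and less RNA per cell cannot be told apart.

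Probes with such names were well above background in numbers of 2530, 2234 and 2604 on PVBL 1 to 3 and 2710, 2612 and 2508 on sham 1 to 3, that is 34.8% to 40.5% of the 6423 in PVBL and 39.0% to 42.2% in sham. The groups overlapped, PVBL 2 having the fewest and sham 1 the most. Of the 2404 included probes, 360 (15.0%) were included through sham alone and 60 (2.50%) through PVBL alone. For RefSeq mRNA probes, whose names start with NM_, the same counts were 873 (4.99%) and 512 (2.92%) of 17511. For all probes included under any name they were 2475 (8.86%) and 779 (2.79%) of 27919. A large share through sham alone was not particular to these transcripts. It was 19.6% for probes named by genome position and 11.9% for model RefSeq mRNAs, named XM_. No test was made of these differences, since detection is what chose the probes. At the detection limit the 3 dimmest included probes had lowest signals of 13.7, 14.4 and 14.4 units in their brighter group, and the 3 brightest excluded probes 33.0, 29.0 and 28.4 units. The scanner judges each spot against its own background, and these ranges crossed.

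A fold is only a bound where a group gave no signal well above background. This held for 10 probes detected on all PVBL and no sham array, 8 of them for Ensembl transcripts, and for 59 probes detected on all sham and no PVBL array, 41 of them for Ensembl transcripts. Among all 27919 probes included under any name the counts were 279 and 401. They were 205 and 122 of 17511 RefSeq mRNA probes, and 46 and 170 of 4884 probes named by genome position. How many of those were called was not counted. The bound is the bright group's mean over the dim group's mean of the higher of 2 values per array, the probe's own and the lowest signal well above background. Among the 9 called probes of the first kind the median bound was at least 1.89-fold higher in PVBL and the largest at least 12.8-fold, with 4 of at least 2-fold. These rises depended on the background correction: with normexp 4 of the 9 had the other sign, the median log2 difference was 0.09 and the probe with the largest bound stood at 1.61. Among the 52 called probes of the second kind the median bound was at least 1.66-fold lower and the largest at least 3.60-fold, with 14 of at least 2-fold. With normexp 0 of the 52 had the other sign and their median was -0.50. This does not test the falls, because normexp was used with an offset added to every signal. The normexp median of all 3254 probes of any name included through 1 group was -0.34. The part of the offset in these values, and in the turned signs among the 9 rises, was not tested. The 420 probes included through 1 group are given only as a description, since a difference in flags between the groups chose them. Of them 27 (6.43%) were higher and 145 (34.5%) lower, beside 14.5% and 30.1% of all 3254 such probes of any name. Their counts were 5 higher and 124 lower with normexp, where all 3254 gave 239 and 904. With the spike-in scaling they were 37 higher and 29 lower, where all 3254 gave 572 and 201.

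Among the 1984 probes on all 6 arrays, lower calls outnumbered higher ones in PVBL. There were 424 lower calls (21.4%) and 98 higher calls (4.94%), beside 17.8 percent lower and 10.8 percent higher among all 24665 probes on all 6 arrays. For RefSeq mRNA probes the shares were 15.6% lower and 13.6% higher of 16126. The share of higher calls among cDNA and predicted transcripts was thus below the background share, and that of lower calls above it. Over every included probe 694 were called, 28.9% against a background of 30.5 percent of all probes tested, and 442, 329, 417 and 388 without PVBL 1, sham 1, sham 2 and sham 3.

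The count of lower calls depended on single arrays. Without PVBL 1 it was 250, without sham 1 it was 169, without sham 2 it was 224 and without sham 3 it was 206, while without PVBL 2 or PVBL 3 it was 415 and 409. Higher calls numbered 56 without sham 1 and 61 without sham 2. With 3 arrays a group, leaving 1 out also removes part of the fit's precision. Other scalings changed the balance: median scaling gave 140 higher and 242 lower, quantile normalization 124 higher and 370 lower, and the spike-in scaling 84 higher and 23 lower.

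Called rises of at least 2-fold numbered 37 and called falls of that size 97 among the 1984, that is 1.86% and 4.89%, whereas all probes on all 6 arrays had 4.32 percent and 3.93 percent. Falls thus outnumbered rises among these transcripts at 2-fold, and rises outnumbered falls in the background. Called rises of at least 4-fold numbered 8 (0.40%) and falls of that size 6 (0.30%), beside 1.12 percent and 0.373 percent of all probes on all 6 arrays. The smallest called difference was 0.40 log2 units and the median called difference 0.75 in size, so many calls were modest. The typical probe had an SD of 0.23 over the 3 PVBL arrays and 0.17 over the 3 sham arrays, with a median SE of 0.18 for the difference. The groups were fully separated, with no overlap, for 748 probes lower in PVBL and 186 higher (37.7% and 9.38%), beside 32.1 percent and 17.8 percent of all probes on all 6 arrays.

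The median log2 difference of the 1984 probes was -0.28, with the middle of the distribution between -0.53 and -0.01, and 1501 probes (75.7%) lay below 0. For all probes on all 6 arrays it was -0.16 and for RefSeq mRNA probes -0.08. Under the spike-in scaling these medians were 0.14, 0.27 and 0.35, and 35.7% of the cDNA and predicted transcripts lay below 0. The median of these transcripts was therefore below the array-wide median by the same amount on both scales, whereas its sign differed. By array, the median level of the 1984 probes was -1.10, -1.12 and -1.04 in PVBL and -0.87, -0.86 and -0.76 in sham. These values did not overlap on the 75th percentile scale. On the spike-in scale they were -0.53, -1.13 and -0.96 in PVBL and -0.82, -0.83 and -1.49 in sham, where the groups overlapped.

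**Figure D1:**
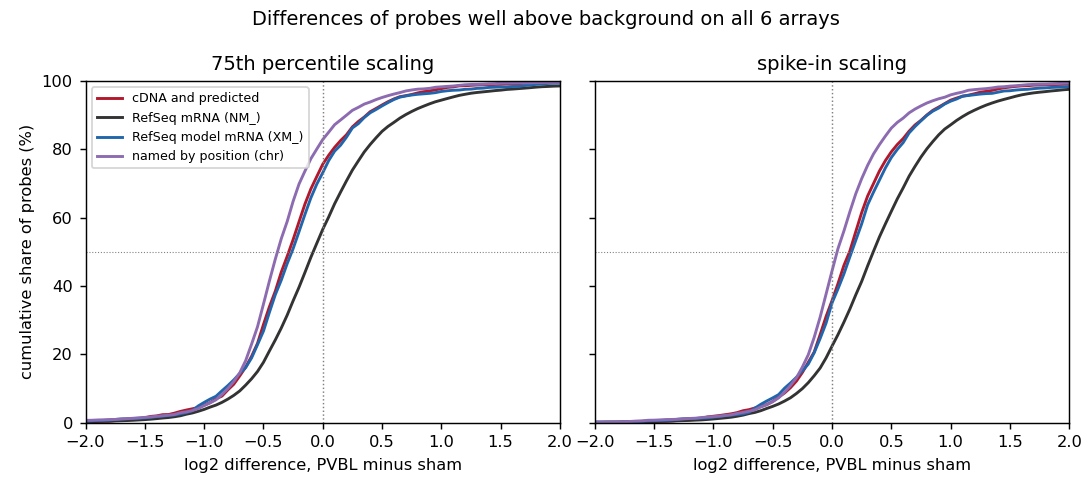
Cumulative share of probes on all 6 arrays (vertical axis, percent) against the log2 difference, PVBL minus sham (horizontal axis), under the 75th percentile scaling (left) and the spike-in scaling (right), with 1 line per class of probe name. At 75th percentile scaling the line for cDNA and predicted transcripts crosses 50% at -0.28 and that for RefSeq mRNAs at -0.08, and the spike-in scaling moves every line right by 0.43.

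Other classes without a curated mRNA are given for comparison. Model RefSeq mRNAs, named XM_, had a median of -0.26 over 1443 probes with 23.2% lower calls. Probes named by genome position had a median of -0.38 over 3780 probes, with 25.6% lower and 3.44% higher calls. Model non-coding transcripts, named XR_, had a median of -0.04, with 150 higher and 78 lower calls among 1047. RefSeq non-coding transcripts, named NR_, had a median of -0.23, with 22 higher and 66 lower calls among 285. These class values are descriptions, since probes of different classes differ in brightness, probe design and gene content, and no test between classes was made.

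The brightness of a probe was compared between classes by the signal ranges that divide the 1984 probes into 4 sets of 496. From the dimmest to the brightest range the medians were -0.29, -0.31, -0.31 and -0.25 for cDNA and predicted transcripts and -0.12, -0.08, -0.01 and -0.11 for RefSeq mRNAs in the same ranges. The cDNA and predicted transcripts were lower than RefSeq mRNAs in each of the 4 ranges. This was not particular to them. In the same ranges the medians were -0.36, -0.37, -0.27 and -0.19 for XM_ probes. For probes named by genome position they were -0.37, -0.40, -0.38 and -0.39. The share of lower calls was 18.8%, 23.2%, 22.2% and 21.4% against 14.5%, 15.2%, 13.5% and 17.4% for RefSeq mRNAs. The share of higher calls was 2.82%, 5.85%, 6.45% and 4.64% against 9.58%, 15.6%, 17.3% and 11.4%.

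**Figure D2:**
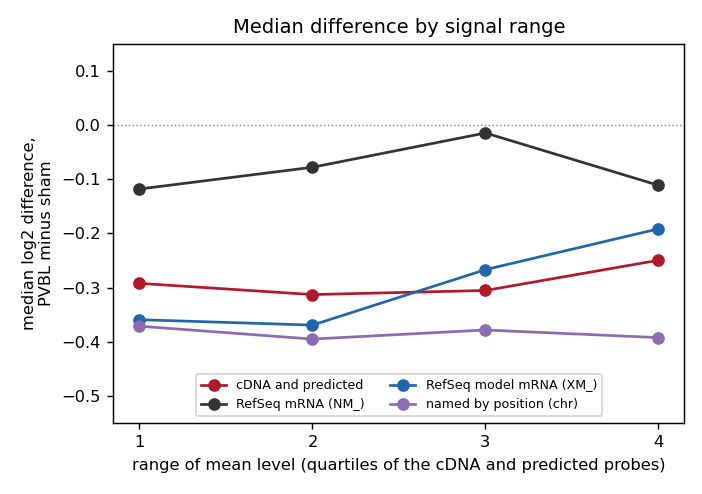
Median log2 difference, PVBL minus sham (vertical axis), of probes on all 6 arrays in 4 ranges of mean level (horizontal axis, dimmest to brightest), with 1 line per class of probe name and the 75th percentile scaling. The line for cDNA and predicted transcripts lies between -0.31 and -0.25 and that for RefSeq mRNAs between -0.12 and -0.01.

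By the kind of name, Ensembl transcripts had a median of -0.27 over 1355 probes, with 77 higher (5.68%) and 296 lower (21.8%) calls. RIKEN cDNAs had a median of -0.31 over 430 probes, with 12 higher (2.79%) and 89 lower (20.7%). Mammalian Gene Collection cDNAs had a median of -0.15 over 44 probes, with 4 higher and 7 lower. Other GenBank accessions had a median of -0.35 over 94 probes, with 3 higher and 19 lower. Within these, 71 probes for expressed sequence tags had a median of -0.44 with 2 higher and 15 lower, and the other 23 had -0.20 with 1 higher and 4 lower. The small classes held 1 higher and 6 lower of 28 Agilent numbers, 1 and 4 of 9 TC names, 0 and 2 of 5 NAP names, and 0 and 1 of 19 named lncRNA probes. Lower calls outnumbered higher ones in each of these classes on the 75th percentile scale.

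Under the spike-in scaling this order did not hold. Of all 1984 probes 84 (4.23%) were higher and 23 (1.16%) lower, beside 7.78 percent and 0.92 percent of all probes on all 6 arrays. Ensembl transcripts had 63 higher and 10 lower calls, RIKEN cDNAs 13 and 8, and Mammalian Gene Collection cDNAs 4 and 4. Calls made under both scalings numbered 69 higher and 23 lower of the 1984, beside 1752 and 222 of all 24665 probes on all 6 arrays. In both sets 0 probes were called in opposite directions. The 69 and 23 probes are those whose call does not turn on the choice between these scalings. The direction held for more, since a probe such as that of HOTAIR kept its direction and lost its call.

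**Figure D3:**
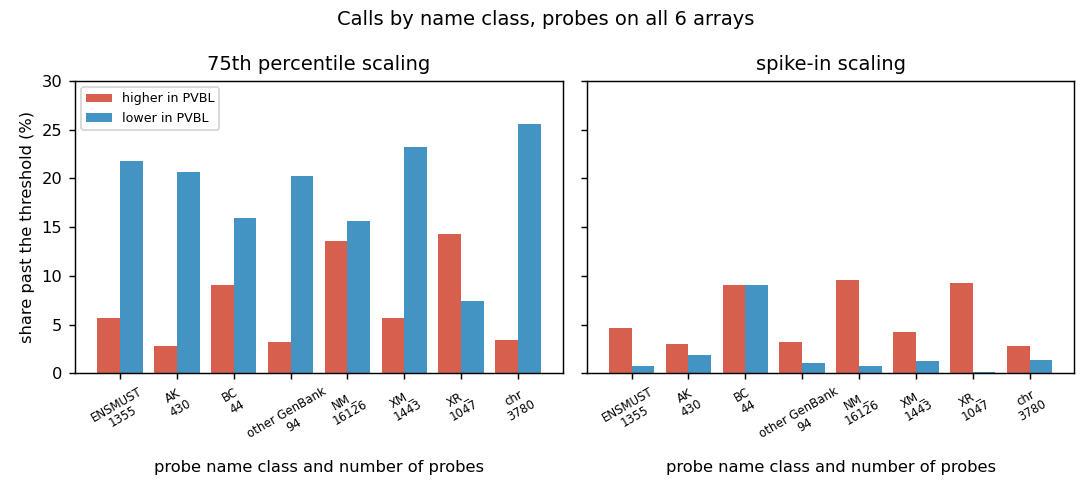
Share of probes on all 6 arrays that passed the threshold (vertical axis, percent), higher in red and lower in blue, for classes of probe name with the number of probes under each (horizontal axis), under the 75th percentile scaling (left) and the spike-in scaling (right). Lower calls reach 21.8% of Ensembl transcripts and 20.7% of RIKEN cDNAs on the left, and on the right they number 10 and 8.

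The largest rise was that of ENSMUST00000091745, whose levels were 6.90, 7.77 and 6.44 in PVBL and 3.22, 3.10 and 3.46 in sham. Every PVBL value lay above every sham value. Its log2 difference was 3.77 ± 0.32 (SE), 13.7-fold, with a limma adjusted p of 0.000435. The next was AK087725, at 2.76, 3.08 and 3.55 in PVBL and 0.32, 0.53 and 0.83 in sham, again without overlap. Its difference was 2.57 ± 0.23 (SE), 5.94-fold, with a limma adjusted p of 0.000581. These transcripts are given by identifier because the files do not pair them with genes.

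The largest fall was that of AK140090, with levels of -2.65, -3.29 and -3.13 in PVBL and 0.38, 0.41 and -0.20 in sham. Its log2 difference was -3.22 ± 0.23 (SE), 9.31-fold lower, with a limma adjusted p of 0.000217. With normexp background correction the difference was -2.14, 4.40-fold. ENSMUST00000129421 had levels of 1.02, -0.31 and 0.37 in PVBL and 3.31, 2.92 and 2.88 in sham, a difference of -2.67 ± 0.32 (SE), 6.38-fold lower, with a limma adjusted p of 0.00198. For all 4 transcripts the direction and the call also held under the spike-in scaling, with differences of 4.20, 3.00, -2.79 and -2.25, and when any array was left out.

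**Figure D4:**
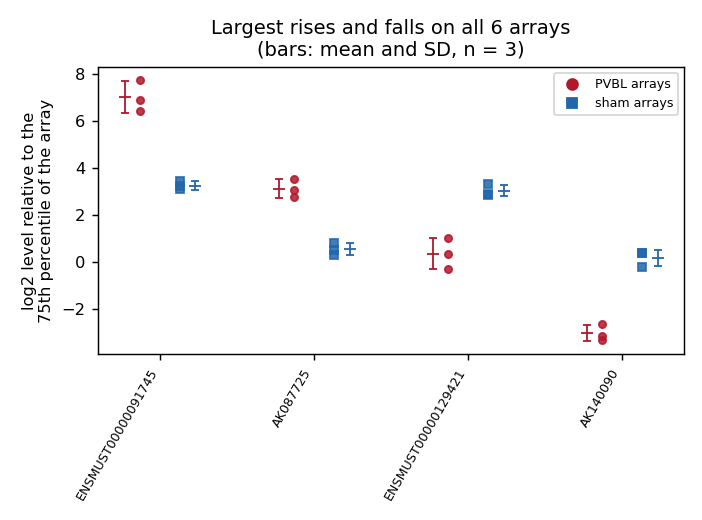
Log2 level relative to the 75th percentile of the array (vertical axis) of the 2 transcripts with the largest rises and the 2 with the largest falls among probes on all 6 arrays (horizontal axis), with 1 point per array and bars for the mean and SD of 3 arrays. In each of the 4 the PVBL and sham points do not overlap, the PVBL points of ENSMUST00000091745 lying between 6.44 and 7.77 and its sham points between 3.10 and 3.46.

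Over the 10 largest rises, 7 for Ensembl transcripts, 1 for a RIKEN cDNA, 1 for a Mammalian Gene Collection cDNA and 1 for another GenBank accession, the fold ranged from 3.88 to 13.7. Under normexp background correction 5 of these 10 shrank by over 1.5 times, 4 of them to between 1.83-fold and 2.35-fold and 1 from 4.42-fold to 2.93-fold. Over the 10 largest falls, 4 for Ensembl transcripts, 3 for RIKEN cDNAs and 3 for Mammalian Gene Collection cDNAs, the fold ranged from 3.47 to 9.31. Under normexp 3 of these shrank by over 1.5 times, AK140090 from 9.31-fold to 4.40-fold and 2 Ensembl transcripts from 5.19-fold to 2.78-fold and from 3.82-fold to 1.95-fold. None of the 20 had overlapping groups, and all 20 also passed under the spike-in scaling.

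Several probes of 1 transcript give a check within the set, although they share the same RNA and are no replicates of the condition. For 43 names there was more than 1 included probe, 98 probes in all. In 38 of the 43 names all probes lay on 1 side of 0, and the median span of the differences within a name was 0.11 log2 units, with a largest span of 0.91. No probe was called for 32 names, all probes were called 1 way for 5, only some for 6, and 0 names had opposite calls. A further check came from 3 probes printed as 10 spots each, whose SD over the spots of an array was 0.15 at the median and between 0.056 and 0.42, over 18 probe and array pairs.

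The lncRNA names were 12, with 57 probes, of which 20 were included. All probes were included for NEAT1 (5 of 5), NEAT2 (3 of 3) and TUG1 (5 of 5). The included probes were 2 of 5 for KCNQ1ot1, 2 of 5 for NRON, 1 of 5 for H19, 1 of 5 for HOTAIR and 1 of 4 for BRN1-A. XIST coats and silences an X chromosome in female cells, and TSIX is its antisense RNA. For PINC, TSIX, XIST and lincP21 0 of 5 probes each were included, which says that these probes did not meet the detection condition and nothing of the gene.

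NEAT1 is the RNA scaffold of paraspeckles, nuclear bodies that hold proteins and edited RNAs. Its brightest probe had levels of 3.46, 2.53 and 3.95 in PVBL and 2.62, 3.07 and 2.75 in sham, a difference of 0.50 ± 0.35 (SE) with a limma adjusted p of 0.29. PVBL 2 was the lowest of all 6 arrays and PVBL 3 the highest, so the groups overlapped. On 4 of the 5 probes PVBL 2 was the lowest PVBL array and PVBL 3 the highest. The fifth had 1.64, 2.21 and 3.63 in PVBL and 2.27, 2.74 and 2.40 in sham, a difference of 0.02 ± 0.47 (SE), and -0.69 with weights for the arrays.

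Over the 5 NEAT1 probes the differences ran from 0.02 to 0.54, with SE of 0.31 to 0.47 and adjusted p of 0.21 to 0.97, and none passed. Without PVBL 2, 3 of the 5 probes passed, with differences of 0.77 to 0.90 and adjusted p of 0.0331 to 0.0497, so the call depended on PVBL 2. With weights for the arrays 2 probes passed, at 0.58 and 0.62, with adjusted p of 0.025 and 0.030. The RefSeq probe of Neat1, which is outside the set, gave 0.53 ± 0.33 (SE), and its values per array were 3.39, 2.65 and 4.01 in PVBL and 2.58, 3.04 and 2.84 in sham. There too PVBL 3 was the highest array and PVBL 2 the lowest of PVBL.

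NEAT2 is an older name of Malat1, an abundant nuclear RNA of speckles, where splicing factors collect. On these arrays its 3 probes were not bright, with a mean level of -1.90 in PVBL and -2.16 in sham. Their differences were 0.21, 0.25 and 0.31, with limma adjusted p of 0.25 to 0.46. The second of them had -2.09, -2.23 and -2.07 in PVBL and -2.43, -2.12 and -2.60 in sham, where PVBL 2 lay below sham 2. Groups overlapped on all 3 probes, and the RefSeq probe of Malat1 gave 0.23 ± 0.17 (SE). With normexp correction the differences were -0.03 to 0.07, so their sign was not settled.

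TUG1, a conserved transcript named for its rise after taurine in retinal cells, had 5 probes with differences of -0.36 to -0.18, SE of 0.17 to 0.21 and adjusted p of 0.19 to 0.45. The probe with the largest difference had -1.02, -1.69 and -1.25 in PVBL and -0.86, -0.87 and -1.15 in sham, the lowest sham array lying below the highest PVBL array. Under the spike-in scaling the 5 differences were 0.07 to 0.25, so their sign turned, and none passed there either. The 3 RefSeq probes of Tug1 gave 0.27, 0.00 and -0.26, with SE of 0.17 to 0.19, and did not lie on 1 side of 0.

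Among imprinted lncRNAs, KCNQ1ot1 is made from the paternal chromosome and silences neighbouring genes in cis, and H19 is made from the maternal chromosome and is abundant in fetal liver. The KCNQ1ot1 probes gave -0.32 ± 0.21 and -0.09 ± 0.44 (SE), with adjusted p of 0.27 and 0.89. On the second of them PVBL values of -0.50, -0.01 and -1.46 stood beside sham values of -0.11, -0.30 and -1.30, both groups covering more than 1 log2 unit. The RefSeq probes of Kcnq1ot1 gave 0.44 ± 0.21 and -0.14 ± 0.19 (SE). The H19 probe had -2.15, -2.34 and -2.61 in PVBL and -2.45, -2.27 and -2.29 in sham, a difference of -0.03 ± 0.16 (SE) with an adjusted p of 0.88.

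NRON, a scaffold that holds the transcription factor NFAT in the cytoplasm, gave -0.16 ± 0.21 and 0.18 ± 0.37 (SE) on its 2 probes, with adjusted p of 0.58 and 0.73. On both probes sham 3 stood above the other sham arrays, at 0.01 against -0.67 and -0.64 on the first and at -0.81 against -1.97 and -1.96 on the second. The groups overlapped on both.

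HOTAIR is transcribed antisense within the HoxC cluster, and 1 of its 5 probes was detected. That probe had -1.81, -1.40 and -1.90 in PVBL and -0.92, -1.08 and -0.91 in sham, with no overlap. Its difference was -0.73 ± 0.17 (SE), 1.66-fold lower, with a limma adjusted p of 0.0181. Under the spike-in scaling it was -0.30 with an adjusted p of 0.80, and the call was also lost without PVBL 1, sham 1 or sham 3, with adjusted p of 0.0595, 0.0682 and 0.061. On no array were the other 4 HOTAIR probes well above background. The BRN1-A probe, included through sham alone, had -3.75, -3.72 and -3.56 in PVBL and -2.80, -3.06 and -2.23 in sham, and was well above background on 1 of 3 PVBL arrays. Its difference of -0.98 is a description, since a difference in flags between the groups chose the probe.

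**Figure D5:**
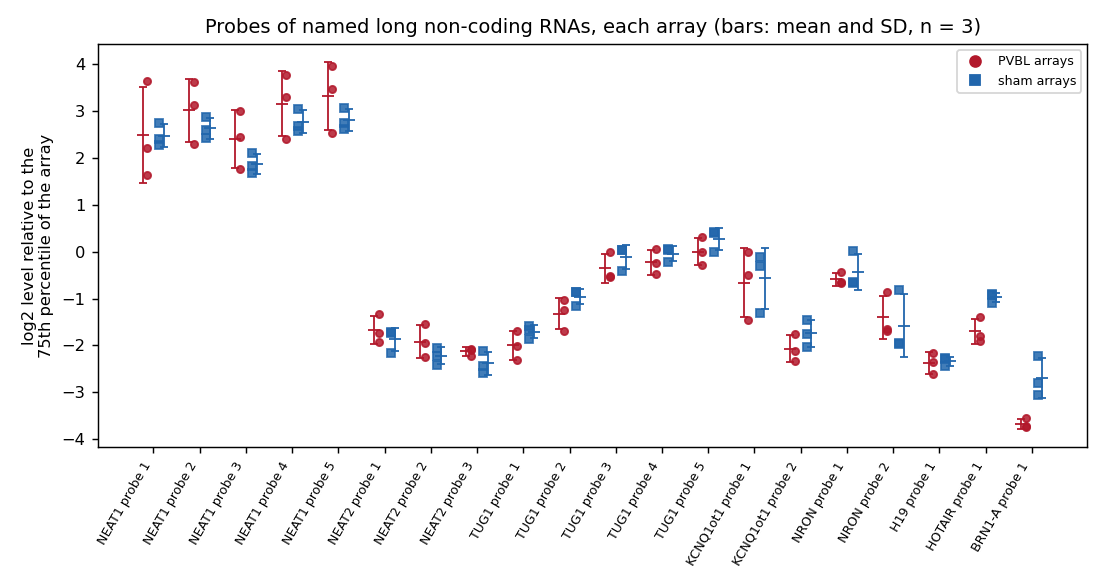
Log2 level relative to the 75th percentile of the array (vertical axis) of the 20 included probes of named lncRNAs (horizontal axis), with 1 point per array, red for PVBL and blue for sham, and bars for the mean and SD of 3 arrays. Groups overlap except on the HOTAIR and BRN1-A probes, and the PVBL points of NEAT1 spread more widely than its sham points.

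The list of known lncRNAs had 37 genes, of which 25 had a RefSeq probe on the array and 22 were tested through it. Of these 0 were higher and 6 lower, beside 11.3 percent and 19.2 percent of all probes tested, with a median difference of 0.00, and 1 higher and 1 lower under the spike-in scaling with a median of 0.43. The median over all probes tested was -0.19 and 0.24 on these scales. The lower genes were Mir22hg, host gene of a microRNA, at -1.89 ± 0.18 (SE), Dleu2 at -1.17 ± 0.19 (SE), the small nucleolar RNA host genes Snhg12 at -0.86, Snhg6 at -0.64 and Snhg1 at -0.55, and the imprinted Peg13 at -0.74. Mir22hg was also lower under the spike-in scaling, at -1.46, and the other 5 did not pass there. Under that scaling Pvt1, a neighbour of Myc, was higher at 1.40, whereas on the 75th percentile scale it was 0.97 ± 0.35 (SE) with an adjusted p of 0.071.

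For genes with both kinds of probe, 16 included probes could be set beside the brightest RefSeq probe of the same gene. The signs were the same for 8 of 16, and 0 had opposite calls. This count rests in part on Tug1, whose brightest RefSeq probe stood at 0.00, so that its 5 TUG1 probes fell on the other side of a value next to 0. The 2 KCNQ1ot1 probes, at -0.32 and -0.09, lay opposite to the brightest RefSeq probe of Kcnq1ot1, at 0.44. The remaining pair of unlike sign is that of AI593498, given below. The spike-in scaling adds 0.43 to every difference, which fixes the signs of all 16 as positive, so its count of 16 says nothing about the agreement. The pair farthest apart was AI593498, an expressed sequence tag listed as a synonym of Dusp8, a phosphatase that acts on MAP kinases. AI593498 had -2.03, -1.77 and -1.91 in PVBL and -1.43, -1.79 and -1.46 in sham, a difference of -0.34 ± 0.15 (SE) with an adjusted p of 0.13. The RefSeq probe of Dusp8 met the detection condition through PVBL alone, being well above background on 1 of 3 sham arrays. It had -0.86, -1.19 and -0.24 in PVBL and -3.39, -4.20 and -5.81 in sham. Its difference of 3.71, or 1.20 with normexp correction, is a description, since a difference in flags between the groups chose the probe. AU024679, a synonym of the lncRNA gene 2610037D02Rik, gave -0.49 ± 0.45 (SE) with an adjusted p of 0.43.

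The authors' deposited table held 607 of the 2404 probes (25.2%), beside 28.1% of all probes tested. In it 487 of the 607 were lower in PVBL and 120 higher. The split over all entries was not counted. Column medians of the whole table also lay lower in PVBL, at -0.18, -0.15 and -0.22 against 0.17, 0.15 and 0.18 in sham. In 100% of its 7850 entries the groups were fully separated, so they had been chosen on the group difference, and these counts are a description of that choice.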

How the data were processed

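Right-lobe liver RNA was measured on 6 single-colour arrays. The deposited scanner files give intensity per spot, already background-subtracted by Agilent Feature Extraction, version 10.7.3.1, for array design 028005, per the file headers (9.1 per the submitters' processing notes). The authors' deposited table holds log2 values, whose scale was found by setting them against the scanner files (r of at least 0.9997 with log2 levels centred per probe), and whose level is lost by the centring. Its column medians were -0.18, -0.15 and -0.22 for PVBL and 0.17, 0.15 and 0.18 for sham.

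All 3671 control spots and the spots marked as outliers (115 to 201 on an array) were dropped, repeat spots of 1 probe were averaged as log2, and the 75th percentile of each array was subtracted. No spot was saturated. A probe counted as well above background on an array when at least as many of its spots carried the flag as not. The PVBL and sham arrays were fitted in limma (version 3.58.1, under R 4.3.3; lmFit, eBayes, two-sided), Benjamini-Hochberg over all 27919 probes passing the detection condition, threshold 0.05; 2 of the described probes lacked a value on an array and were fitted on the others. The fit was tested on simulated data. Spike-in scaling used 262 E1A spots of 8 sequences.

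Named were the largest changes on all 6 arrays and transcripts with a gene symbol. The scanner files hold no gene-name column, so the planned gene lists could not be matched to most of these probes, and names came from RefSeq symbols and synonyms. Files do not pair the other identifiers with genes, so 2 rises and 2 falls are printed. The probes and lists were chosen with earlier results of these data known. Alternatives were median, spike-in and quantile scaling, normexp on the median signals with offset 50 (mean signals were planned), filters, array weights, a trended robust prior, the deposited table, a replicate block and leaving out each array. The number of arrays limits the precision.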

Additional observations from a re-analysis of the deposited data

How the results depend on the processing

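The counts moved with the scaling, the filter and single arrays, and the directions of the largest changes did not. Changed probes (8516), changed cDNA and predicted transcripts (694), those on all 6 arrays higher (98) and lower (424), and their median (-0.28) became 2918, 173, 84, 23 and 0.14 with spike-in scaling, which turned the median's sign because it moves every difference by 0.43. Lower calls were 242 and the median -0.15 with median scaling, and the median was -0.22 with quantile normalization, -0.25 with normexp and -0.54 in the authors' deposited table, which holds only probes chosen on the difference. Testing every probe gave 3621, 298, 45 and 113, with more probes to adjust over. Array weights gave 15750, 1402, 222 and 896, with a weight of 5.46 for PVBL 1 and 0.31 for PVBL 3. The cause of the other moves was not tested. Leaving out 1 array gave 4159 to 8499 probes, 329 to 732 transcripts, 56 to 114 higher, 169 to 415 lower and medians of -0.31 to -0.26. Probes with the sign of the RefSeq probe of their gene, 8 of 16, were 16 with spike-in scaling, which makes all of them positive by construction, 13 with quantile normalization and 7 to 14 without 1 array, and could not be counted in the deposited table. With array weights 2 of the 16 had calls opposite to it.

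With the replicate number as a block, 7380 probes and 629 transcripts were called, 94 higher and 352 lower. Same-numbered PVBL and sham arrays also shared a column of the slide. Their deviations correlated at 0.20, -0.04 and 0.23. Arrays of unlike number were not set beside them, so these values do not settle whether the numbers pair the samples. Single named probes kept their direction and their side of the threshold in 350 values under alternatives. In 30 more, of 15 probes not called in either fit, the sign turned, 10 of them with spike-in scaling. The probes lost the call in 8 values, all of HOTAIR and BRN1-A, and gained it in 7, of NEAT1, KCNQ1ot1 and AI593498. Signals near the limit of 13.3 to 23.8 units well above background give only bounds.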
